A study of Saccharomyces cerevisiae with 36 samples.

Results

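The RNA that sedimented outside polysomes in wild-type yeast was compared between cells deprived of amino acids and fed cells. The comparison rests on 4 of the 36 Affymetrix yeast arrays of the study, 2 of starved and 2 of fed non-polysome RNA, chosen by their labels. Both groups came from Saccharomyces cerevisiae BY4742, a MATalpha laboratory strain without working HIS3, LEU2, LYS2 and URA3 genes that served as the wild-type beside deletions of MSN5 and MTR10. Cultures at 30 °C and an OD600 of 0.35 were divided. The starved cells spent 30 min in synthetic defined medium without amino acids, and the fed cells spent the same time in that medium with them. Both received cycloheximide at 100 µg/ml, which holds ribosomes on messages, and their lysates were run on gradients of 10 to 50% sucrose, where the fractions outside the polyribosome region were combined into 1 pool. The labels call the replicates biological without saying more about their cultures, so that p-values measure a spread between arrays. That spread was estimated for each gene within the groups of all 36 arrays, and not from these 4 alone.

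A message outside polysomes carries no ribosome or few of them. It may be waiting for initiation, held back by a regulator or on its way to decay, and the same gradient region also holds free ribosomal subunits and single ribosomes. Amino acid withdrawal leads uncharged tRNA to activate the kinase Gcn2, which slows initiation on most messages through eIF2 while the translation of GCN4, the activator of amino acid synthesis genes, goes up. How messages outside polysomes change then depends both on how much of each message a cell holds and on where in the gradient it lies. Polysome RNA and total RNA of the same cells, with 2 starved and 2 fed arrays each, serve below to show where the non-polysome change was its own.

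Levels are deposited log2 RMA signals, an expression measure in which 1 unit is a doubling and every array is given nearly the same distribution, so that each change is relative to the other messages of the same pool. Changes are starved minus fed on that scale ± the standard error of the limma fit, which draws on the spread within all 18 groups of arrays. Genes with an adjusted p below 0.05 are those called. Values ran from 3.42 to 14.61 over all 5684 probe sets and 36 arrays of the series, and 5338 genes were tested. The median gene differed by 0.152 between the 2 starved arrays and by 0.092 between the 2 fed arrays. With 2 arrays a group, the number of arrays limits the precision of every value.

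Starvation changed the non-polysome pool widely. In all, 1658 genes rose (31.1% of those tested) and 1920 fell (36%), which makes 3578 (67%) in either direction. At least 2-fold rises were called for 522 genes (9.78%) and at least 2-fold falls for 498 (9.33%). The 2 starved and 2 fed arrays did not overlap at 4549 genes (85.2%), and the median change of all genes was -0.07, with 90% of genes between -1.25 and 1.49. Each list of genes is described below against this background, in which most genes changed.

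**Figure D1:**
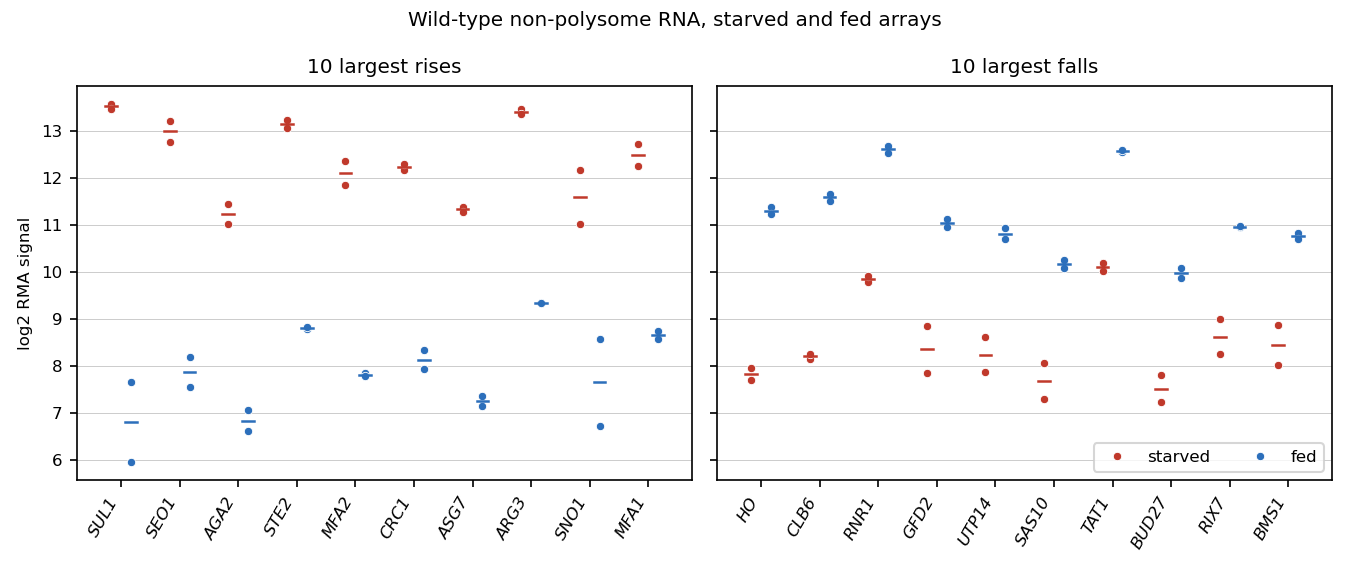
Log2 RMA signal (vertical axis) of the 10 genes with the largest rise (left) and the 10 with the largest fall (right) in wild-type non-polysome RNA, with each array as a point and each group's mean as a bar, starved left of fed. SUL1 lay at 13.58 and 13.48 on the starved arrays, against 5.95 and 7.66 on the fed arrays. The 20 genes were picked among called genes whose starved and fed arrays do not overlap. Such arrays were found at 85.2% of all genes tested.

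The largest rise belonged to SUL1, a high-affinity sulfate permease. SUL1 measured 13.58 and 13.48 in starved non-polysome RNA, against 5.95 and 7.66 in fed non-polysome RNA, a rise of 6.72 ± 0.50 (adjusted p = 2.25e-10). The 2 fed arrays lay further apart than most, and the change was 5.87 without fed replicate 1 and 7.58 without fed replicate 2. The fed value of 5.95 is low, as the lowest mean of any gene over the 4 non-polysome arrays was 5.675. SEO1, a putative permease, measured 13.22 and 12.76 in starved against 7.54 and 8.19 in fed non-polysome RNA and rose by 5.13 ± 0.27. CRC1, the mitochondrial carnitine carrier, rose by 4.10 ± 0.16. The arginine gene ARG3, for ornithine transcarbamylase, measured 13.46 and 13.35 on starved and 9.33 and 9.34 on fed arrays and rose by 4.07 ± 0.27. SNO1, whose product works with Snz1 in vitamin B6 synthesis, rose by 3.94 ± 0.69, a value that was 3.01 without fed replicate 1 and 4.87 without fed replicate 2. The other 5 of the 10 largest rises were MATa-specific mating genes.

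The largest falls were of cell cycle and ribosome assembly genes. HO, the endonuclease of mating-type switching, measured 7.69 and 7.95 in starved against 11.38 and 11.22 in fed non-polysome RNA, which is -3.48 ± 0.24. CLB6, an S-phase cyclin, measured 8.15 and 8.26 against 11.67 and 11.51 (-3.38 ± 0.18), and RNR1, the large subunit of ribonucleotide reductase, 9.79 and 9.91 against 12.68 and 12.54 (-2.76 ± 0.16). The 10 genes named here were picked for large falls without overlap between starved and fed arrays. Arrays without overlap were found at 85.2% of all genes tested. UTP14 (-2.58 ± 0.25), SAS10 (-2.49 ± 0.30) and BMS1 (-2.32 ± 0.24) act in small-subunit assembly, and RIX7 (-2.34 ± 0.26), an ATPase, in that of the large subunit. TAT1, a permease for branched-chain amino acids and tyrosine, measured 10.02 and 10.19 on starved against 12.55 and 12.61 on fed arrays (-2.48 ± 0.17), and its gene overlaps an annotated noncoding locus. GFD2 (-2.69 ± 0.35) and BUD27 (-2.46 ± 0.20) complete the 10.

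The genes of amino acid synthesis rose in the non-polysome pool along most pathways. All 8 measured arginine genes rose, with a median of 2.27. ARG1, for argininosuccinate synthase, measured 14.22 on both starved arrays, against 11.32 and 11.23 on the fed arrays (2.94 ± 0.17), which put it near the top of the scale. ARG7, for an acetyltransferase early in the pathway, rose by 2.82 ± 0.12. Of 32 genes of sulfur assimilation and methionine synthesis, 29 rose and 1 fell, with a median of 2.05. STR3, for cystathionine beta-lyase, averaged 13.12 ± 0.16 in starved and 9.52 ± 0.34 in fed non-polysome RNA (SD, n = 2 each), MET22 rose by 2.27 ± 0.13, and the 1 that fell was MET31, a DNA-binding regulator of the pathway (-0.43 ± 0.13, and -0.37 with adjusted p = 0.0518 without fed replicate 1).

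The other pathways moved by less. All 9 lysine genes rose (median 0.95), among them LYS1, for saccharopine dehydrogenase, by 2.47 ± 0.14 and LYS5 by 1.96 ± 0.11. Of 6 histidine genes 5 rose (median 1.56), and HIS4 rose by 1.87 ± 0.12. HIS3 is partly deleted in BY4742, and its probe set still gave 13.61 and 13.64 in starved and 12.47 and 12.28 in fed non-polysome RNA (1.25 ± 0.08). Of 12 aromatic genes 11 rose (median 1.01), with TRP4 at 2.11 ± 0.11 and ARO3 at 1.42 ± 0.08. Of 12 branched-chain genes 10 rose (median 0.42), LEU4 by 1.28 ± 0.07.

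Of 12 genes of threonine, serine and glycine synthesis 9 rose and 2 fell (median 0.56). SER33, for phosphoglycerate dehydrogenase, rose by 2.04 ± 0.13, and GLY1, for threonine aldolase, measured 12.36 and 12.61 in starved against 13.20 and 13.15 in fed RNA (-0.69 ± 0.10). Of 15 genes of glutamate, glutamine, asparagine and proline metabolism 10 rose and 2 fell (median 0.57), ASN1, for asparagine synthetase, by 0.97 ± 0.10. No list of amino acid synthesis had a median below 0, against -0.07 over all genes.

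**Figure D2:**
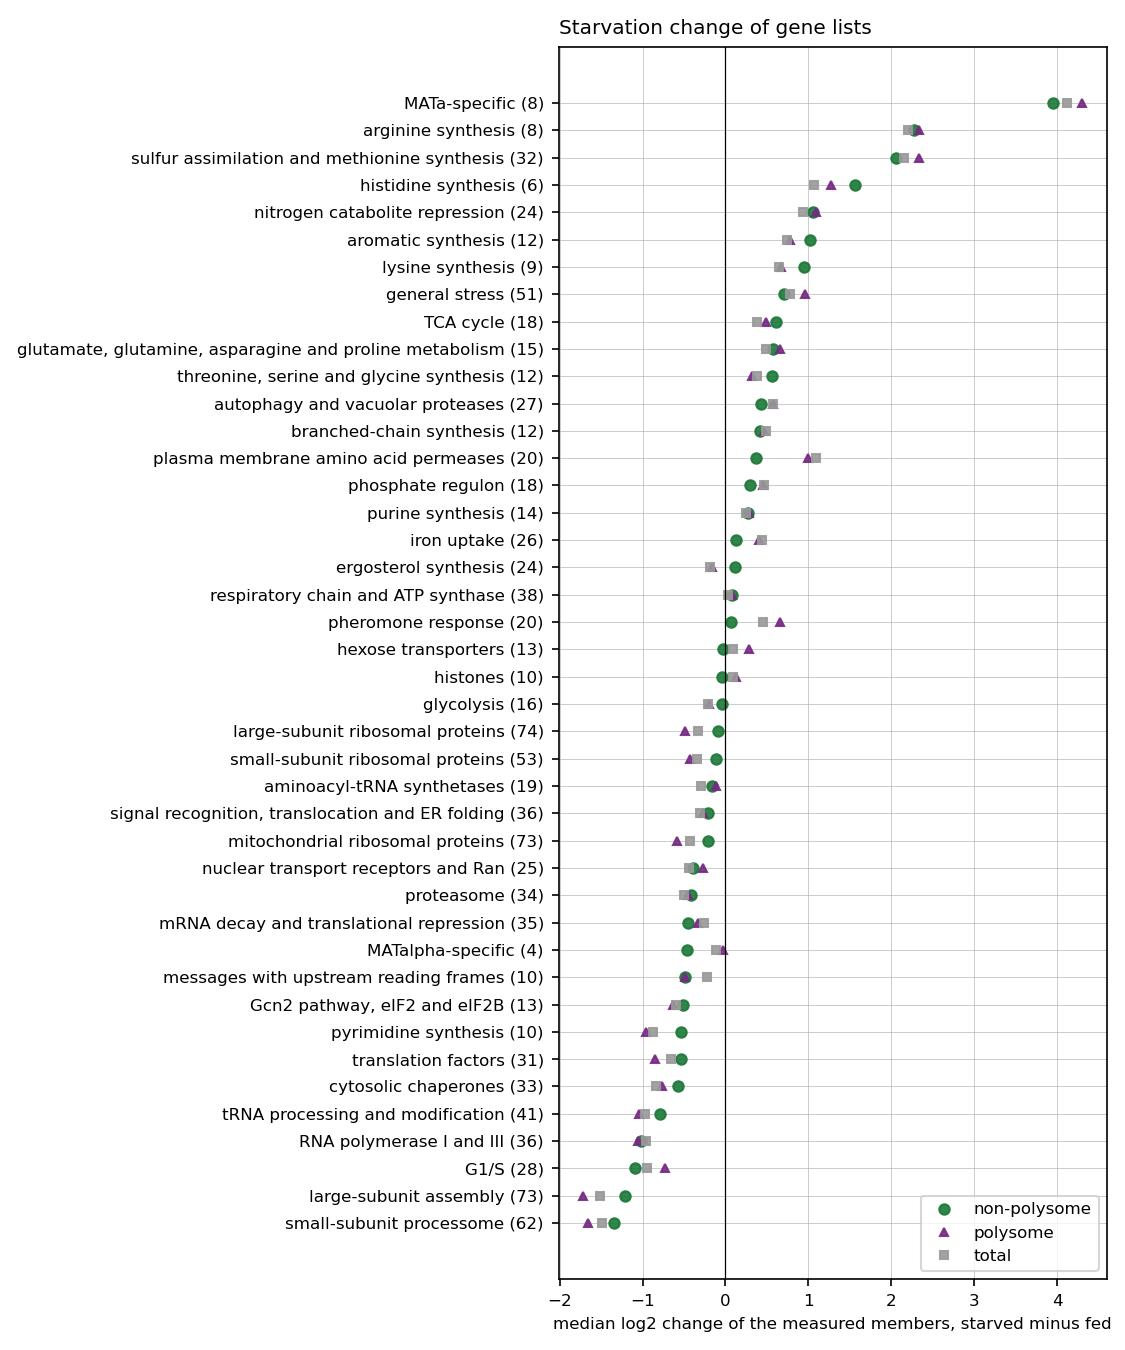
Median log2 change, starved minus fed (horizontal axis), over the measured members of each gene list (number in brackets), in wild-type non-polysome RNA (circles), polysome RNA (triangles) and total RNA (squares). Ribosomal protein lists lie near 0 in non-polysome RNA, at -0.09 and -0.11, and further below 0 in the other kinds, while assembly lists lie below -1 in all 3.

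Genes that open other nitrogen sources and the degradation of cell material rose as well. Of 24 genes under nitrogen catabolite repression, which is the silencing of genes for poor nitrogen sources, 17 rose and 2 fell (median 1.05). DAL80, a GATA factor of this regulon, measured 9.66 and 8.98 in starved against 5.56 and 5.65 in fed non-polysome RNA (3.72 ± 0.28). These fed levels are low, as the lowest mean of any gene over the 4 non-polysome arrays was 5.675. UGA3, the activator of the genes for gamma-aminobutyrate use, rose by 2.62 ± 0.12, and CAR1, for arginase, fell by 1.13 on the log2 scale (standard error 0.16). Of 27 genes of autophagy and vacuolar proteases 19 rose and 2 fell (median 0.42), with the kinase gene ATG1 at 2.59 ± 0.18 and the vacuolar phosphatase gene PHO8 at 1.47 ± 0.08.

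Of 51 general stress genes 34 rose and 4 fell (median 0.71), and the glycogen genes GSY1 and GLC3 rose by 2.85 ± 0.17 and 2.15 ± 0.15. Of 18 genes of the citric acid cycle 14 rose and none fell (median 0.61). CIT3, a mitochondrial citrate synthase gene, measured 9.75 and 10.48 in starved against 7.10 and 7.37 in fed non-polysome RNA (2.88 ± 0.23). Of 38 genes of the respiratory chain and ATP synthase 11 (28.9%) rose and 7 (18.4%) fell (median 0.08). Of 16 glycolytic genes 1 (6.25%) rose and 5 (31.2%) fell (median -0.05). Among all genes 31.1% rose and 36% fell, so the respiratory rises and the glycolytic falls lay near those shares.

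The machinery that builds ribosomes fell nearly as a whole. All 62 genes of the small-subunit processome fell, with a median of -1.35, and of 73 genes of large-subunit assembly 69 fell and 0 rose, with a median of -1.22. MPP10 measured 7.84 and 8.33 in starved against 10.15 and 10.03 in fed non-polysome RNA (-2.01 ± 0.18). NOP1, for the nucleolar methyltransferase fibrillarin, fell by 1.42 on the log2 scale (standard error 0.14), and SDA1, which acts in large-subunit assembly and export, measured 8.81 and 9.57 against 11.49 and 11.38 (-2.24 ± 0.27). The starved arrays lay below the fed ones at each of the 3 genes. Such arrays without overlap, in either direction, were found at 85.2% of all genes tested. Of 36 genes of RNA polymerase I and III and their factors 29 fell and 3 rose (median -1.02), RPC31, a polymerase III subunit, by -1.99 ± 0.20.

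Genes of tRNA maturation and of translation itself fell by less. Of 41 tRNA processing genes 29 fell and 5 rose (median -0.79). DUS3, which makes dihydrouridine in tRNA, measured 8.96 and 9.78 in starved against 11.45 and 11.53 in fed non-polysome RNA (-2.12 ± 0.24), SEN34, of the endonuclease that removes tRNA introns, changed by -1.65 ± 0.14, and POP7, a subunit of RNase P and RNase MRP, rose by 1.04 ± 0.12. Of 31 translation factor genes 23 fell and 1 rose (median -0.54), with TIF3, for eIF4B, at -1.49 ± 0.15 and the release factor gene SUP35 at -1.07 ± 0.10. Of 19 aminoacyl-tRNA synthetase genes 9 fell and 3 rose (median -0.16).

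Of 13 genes of the Gcn2 pathway, eIF2 and its exchange factor eIF2B, 8 fell and 0 rose (median -0.52), among them GCN3, a regulatory subunit of eIF2B, by -0.81 ± 0.10. GCN4 itself measured 13.18 and 13.39 in starved and 13.59 and 13.44 in fed non-polysome RNA, a difference of -0.23 ± 0.10 that was not called (adjusted p = 0.0533). Both starved arrays lay below both fed ones, with a gap smaller than the distance between the 2 starved arrays. The difference was called in some other settings, with adjusted p = 0.0212 without starved replicate 2 and 0.0448 with the replicate number as a block.

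Cell cycle, chaperone, proteasome and mRNA decay genes fell too. Of 28 G1/S genes 25 fell and 1 rose (median -1.09), POL30, the replication clamp, by -1.27 ± 0.08. Of 33 cytosolic chaperone genes 26 fell and 2 rose (median -0.57), with STI1, an Hsp90 co-chaperone, at -1.77 ± 0.19, the chaperonin subunit CCT3 at -1.09 ± 0.08 and the small heat shock protein HSP26 at 1.24 ± 0.33. Of 34 proteasome genes 28 fell (median -0.42), RPT2 by -1.19 ± 0.09. Of 35 genes of mRNA decay and translational repression 22 fell and 5 rose (median -0.45), CAF40, of the Ccr4-Not deadenylase complex, by -1.13 ± 0.10.

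MTR10 and MSN5, the nuclear transport genes deleted in the other strains, moved in opposite directions in wild-type. MTR10 measured 9.99 and 10.18 in starved against 10.94 and 10.95 in fed non-polysome RNA (-0.86 ± 0.16, adjusted p = 7.54e-05). MSN5 measured 11.41 and 11.29 against 11.03 and 10.94 (0.37 ± 0.15, adjusted p = 0.0384), which lost its call whichever array was left out, at adjusted p between 0.0543 and 0.177, and also in the centred MAS5 signals without 2 total RNA columns described below, at 0.296. Of 25 genes of nuclear transport receptors and Ran 17 fell and 3 rose (median -0.39). KAP95, for importin beta, changed by -1.66 ± 0.19 and GSP2, a Ran gene, by 1.00 ± 0.20.

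In this MATalpha strain the genes that MATa cells normally use for mating rose in the starved pool. All 8 measured genes listed as MATa-specific rose, with a median of 3.96. In uncentred MAS5 signals, described below, 6 of them were called up (median 3.79). STE2, the alpha-factor receptor, measured 13.24 and 13.07 in starved against 8.79 and 8.84 in fed non-polysome RNA (4.34 ± 0.27), and MFA2, an a-factor gene, 12.36 and 11.85 against 7.84 and 7.78 (4.29 ± 0.33). AGA2 (4.40 ± 0.31), ASG7 (4.08 ± 0.20), MFA1 (3.83 ± 0.24) and BAR1 (3.64 ± 0.23) rose by similar amounts, and STE6, the a-factor exporter, and AXL1 by 1.85 ± 0.18 and 0.54 ± 0.12. The summed linear signal of the 8 genes was 37009 and 31407 on the starved arrays, against 4074 and 4419 on the fed arrays, so that the groups did not overlap.

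Of 4 measured genes specific to MATalpha cells 1 rose and 2 fell. SAG1, the alpha-agglutinin, measured 11.64 and 11.86 in starved against 12.83 and 12.62 in fed non-polysome RNA (-0.97 ± 0.14), and MF(ALPHA)2, an alpha-factor gene, fell by 0.80 on the log2 scale (standard error 0.19). MF(ALPHA)1 lay at -0.14 ± 0.08 (adjusted p = 0.12), and STE3, the a-factor receptor, at 0.31 ± 0.10, a call that ended without fed replicate 2 (0.28, adjusted p = 0.0573) or starved replicate 1 (0.28, adjusted p = 0.0528). The summed signal of these 4 genes was 27058 and 27249 in starved against 35653 and 33940 in fed non-polysome RNA, and MATALPHA1 and MATALPHA2 were not analysed here. In bulk RNA, fewer cells of a type and less RNA per cell cannot be told apart, and the part that cells of another mating type may play was not tested. Of 20 pheromone response genes 8 (40%) rose and 5 (25%) fell (median 0.06), against 31.1% and 36% of all genes. PRM1 and PRM2, which are induced by pheromone, rose by 1.93 ± 0.17 and 2.01 ± 0.21.

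Polysome RNA of the same strain changed by a similar extent. There 1926 genes rose (36.1%) and 1771 fell (33.2%), and in total RNA 1678 rose (31.4%) and 1751 fell (32.8%). Of the rises in non-polysome RNA 1241 were also called in polysome RNA, which is 74.8% of the non-polysome and 64.4% of the polysome rises, and 1191 falls were shared, 62% of the non-polysome and 67.3% of the polysome falls. With total RNA, 1258 rises (75.9% and 75%) and 1309 falls (68.2% and 74.8%) were shared. Over all genes tested, which share their arrays and are no independent replicates, the non-polysome change correlated with the polysome change at r = 0.808 and with the total RNA change at r = 0.878.

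The difference between the non-polysome and the polysome change was tested directly. It was called for 2118 genes (39.7%), above 0 for 876 (16.4%) and below 0 for 1242 (23.3%), with a median over all genes of -0.08. Against total RNA it was called for 998 genes (18.7%), of which 488 (9.14%) lay above and 510 (9.55%) below, with a median of -0.02. Both splits depend on the signal. In MAS5 signals that were centred on each array's median, without 2 total RNA columns that match the other condition, 1249 genes lay above and 1036 below in the first comparison, and 205 above and 103 below in the second. Without centring, the first split was 329 and 1130, and its median over all genes shifted to -0.33. With all MAS5 columns kept, a number of the single-gene calls below ended, as counted in the closing section.

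**Figure D3:**
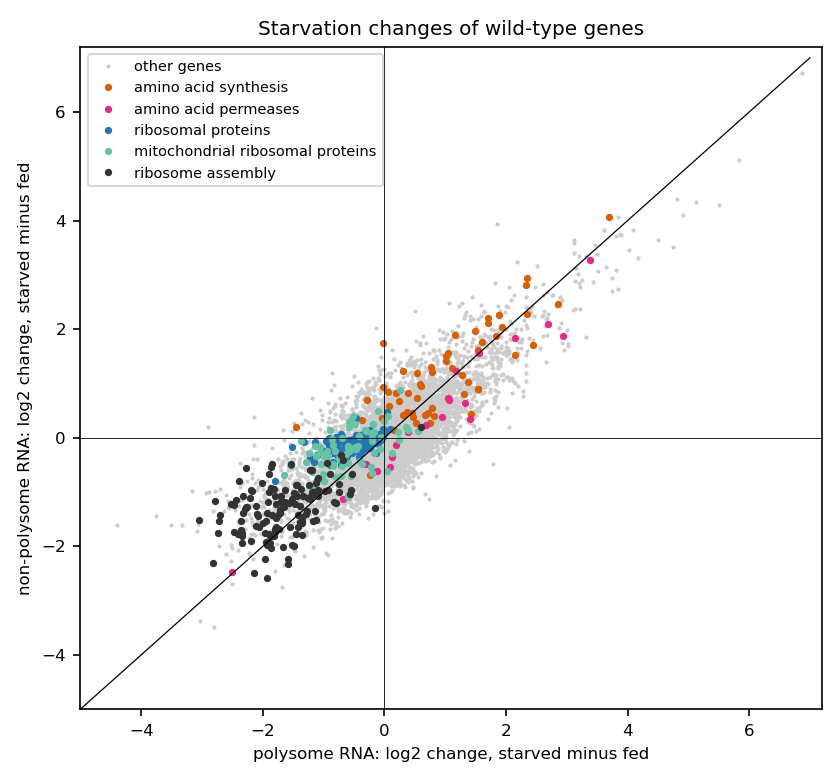
Log2 change, starved minus fed, of each gene tested in wild-type polysome RNA (horizontal axis) and non-polysome RNA (vertical axis), with gene groups in colour and the line of equal change. Cytosolic ribosomal protein genes lie close to 0 on the vertical axis and mostly below 0 on the horizontal axis. Of the 20 amino acid permeases 18 lie below the line, where the median difference of all genes, -0.08, also lies. A difference below 0 was called for 15% of the permeases, against 23.3% of all genes.

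Few messages of cytosolic ribosomal proteins were called outside polysomes, while most fell in polysomes. Of 74 large-subunit genes 3 rose and 4 fell in non-polysome RNA (median -0.09), against 0 and 60 in polysome RNA (median -0.49) and 0 and 39 in total RNA (median -0.33). Of 53 small-subunit genes 0 rose and 4 fell in non-polysome RNA (median -0.11), against 0 and 44 in polysome RNA (median -0.42) and 0 and 32 in total RNA (median -0.35). Their median level in the non-polysome pool was 13.53 in starved and 13.66 in fed cells for the large subunit, and 13.53 in starved and 13.68 in fed cells for the small subunit, which is in the upper part of the range.

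Tested as a difference, the non-polysome change was above the polysome change for 19 of the 74 large-subunit genes and 10 of the 53 small-subunit genes and below it for 0, with medians of 0.34 in both. These shares, 25.7% and 18.9%, lie near or modestly above the 16.4% of all genes. The 2 lists have median coding spans, introns included, of 805 and 768 bp. Of all 1072 genes of 676 to 1044 bp, 351 were called above. In the centred MAS5 signals without the 2 total RNA columns the counts of the 2 lists were 69 and 45, with medians of 0.85, and in those without centring 6 and 4. With 1 array left out, they were 8 to 24 and 2 to 10. The medians stayed above 0 in each of these settings.

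Single ribosomal protein genes illustrate this. RPL6B measured 13.40 and 13.36 in starved against 13.48 and 13.45 in fed non-polysome RNA (-0.09 ± 0.15, adjusted p = 0.636) and fell by 1.33 in polysome RNA, a difference of 1.24 (adjusted p = 0.000212). RPS14B lay at -0.18 in non-polysome and -1.52 in polysome RNA, a difference of 1.34 (adjusted p = 0.00671), and the stalk protein gene RPP2A at -0.09 and -1.14, a difference of 1.06 (adjusted p = 0.00106). RPL15A measured 13.57 and 13.61 against 13.25 and 13.19 and rose by 0.37 ± 0.09 outside polysomes, while polysome RNA gave -0.46 and the difference was 0.83 (adjusted p = 8.46e-05). The non-polysome rise of RPL15A was 0.22 and not called in the centred MAS5 signals without the 2 columns (adjusted p = 0.313). Many of these genes come in near-identical pairs whose signals an array may not fully separate. RPS22B fell by 0.78 in non-polysome RNA, and its gene overlaps an annotated noncoding locus.

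Of 73 mitochondrial ribosomal protein genes 8 rose and 30 fell in non-polysome RNA (median -0.22), against 5 and 52 in polysome RNA (median -0.59). This list has a median coding span of 717 bp, and of all 1072 genes of 676 to 1044 bp 351 were called above the polysome change. In the list the difference was called above 0 for 29, which is 39.7% against 16.4% of all genes, and below 0 for 4 (median 0.34). The count above 0 was 24 to 29 with 1 array left out and 30 in the MAS5 signals without the 2 columns, but 8, with 1 below and a median of 0.10, in the MAS5 signals without centring. MRPL20 measured 11.41 and 11.45 in starved against 11.50 and 11.48 in fed non-polysome RNA (-0.06 ± 0.15) and -1.37 in polysome RNA, a difference of 1.31 (adjusted p = 0.0001). MRPL8 differed by 1.00 (adjusted p = 3.05e-05). RSM10 rose by 0.87 ± 0.09 in non-polysome RNA and MRPS16 fell by 1.10 on the log2 scale, so the members moved in both directions there.

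Ribosome assembly genes lay above the polysome change at shares near that of all genes. The difference was called above 0 for 12 of the 62 processome genes (19.4%) and below 0 for 1 (median 0.25), and for 16 (21.9%) and 1 of the 73 large-subunit assembly genes (median 0.37), against 16.4% above over all genes. With 1 array left out, the counts above ran from 7 to 15 and from 6 to 25, and those medians from -0.01 to 0.54 and from 0.06 to 0.65. Uncentred MAS5 signals gave 3 processome and 1 large-subunit assembly gene above. EMG1, for an rRNA methyltransferase, measured 11.95 and 12.04 in starved against 12.47 and 12.49 in fed non-polysome RNA (-0.49 ± 0.15), while polysome RNA gave -1.85, a difference of 1.36 (adjusted p = 7.49e-05). RRP15 fell by 1.22 in non-polysome and 2.52 in polysome RNA, a difference of 1.31 (adjusted p = 4.02e-05), and NOP6 differed by 1.62 (adjusted p = 1.87e-05).

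Of the 36 genes of RNA polymerase I and III and their factors 7 (19.4%) lay above the polysome change and 8 (22.2%) below, shares close to the 16.4% and 23.3% of all genes. RPC34, a polymerase III subunit, lay at -0.98 ± 0.20 in non-polysome and -2.79 in polysome RNA, a difference of 1.81 (adjusted p = 8.46e-05). BRF1, a subunit of the initiation factor TFIIIB, measured 9.27 and 9.52 in starved against 10.23 and 10.16 in fed non-polysome RNA (-0.80 ± 0.14) and was called up in polysome RNA at 0.46, a difference of -1.26 (adjusted p = 7.24e-05). BDP1, of the same factor, differed by -0.88 (adjusted p = 0.000805).

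For 3 of 20 amino acid permease genes the non-polysome change was called below the polysome change, and for 0 above. That share of 15% lies under the 23.3% of all genes called below. Of the 20 plasma membrane permease genes 10 rose and 4 fell in non-polysome RNA (median 0.36), against 13 and 2 in polysome RNA (median 1.00) and 14 and 2 in total RNA (median 1.09). MMP1, the S-methylmethionine permease, rose by 3.28 ± 0.27 in non-polysome RNA, MUP3, a methionine permease, by 2.10 ± 0.21 and GAP1, the general permease, by 1.83 ± 0.16. DIP5, for acidic amino acids, measured 12.73 and 13.14 in starved against 12.49 and 12.69 in fed non-polysome RNA (0.35 ± 0.12, a call that ended without fed replicate 1 at 0.25, without starved replicate 2 at 0.14 and in a fit restricted to the groups compared). It rose by 1.41 in polysome RNA, a difference of -1.07 (adjusted p = 0.000111).

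The arginine permease CAN1 differed by -0.68 (adjusted p = 0.0117) and SSY1, the plasma membrane sensor of amino acids, by -0.63 (adjusted p = 0.00386). SSY1 measured 8.73 and 8.70 in starved against 9.32 and 9.18 in fed non-polysome RNA (-0.54 ± 0.11) and 0.09 in polysome RNA. The median difference of the 20 permease genes from polysome RNA was -0.41, against -0.08 over all genes, and 3 to 6 were called below with 1 array left out. Against total RNA 5 (25%) were called below and 0 above (median -0.52), where 9.55% of all genes lay below and 9.14% above (median -0.02). In the centred MAS5 signals without the 2 columns the median against polysome RNA was -0.16 with 4 called, but DIP5 and CAN1 lost their calls, both at -0.16 (adjusted p = 0.577 and 0.527), and 0 genes were called against total RNA. The median coding span of the permease genes, from start to stop in the annotation with introns included, is 1810.5 bp, against 1251 bp for all genes.

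The lists of amino acid synthesis lay on both sides of the polysome change. Of 12 aromatic genes 7 lay above it and 0 below, of 12 genes of threonine, serine and glycine synthesis 7 and 1, of 9 lysine genes 4 and 1, and of 6 histidine genes 3 and 1. Glutamate, glutamine, asparagine and proline genes gave 4 and 3 of 15, branched-chain genes 2 and 2 of 12, and arginine genes 2 and 2 of 8. The largest list, of 32 genes of sulfur assimilation and methionine synthesis, had 1 above and 5 below, with a median difference of -0.15. Among all genes 16.4% lay above and 23.3% below. With 1 array left out the aromatic genes above ran from 3 to 7, the histidine genes above from 1 to 3 and the sulfur genes below from 0 to 6. In the MAS5 signals without the 2 columns the sulfur list had 9 above and 0 below (median 0.19) and the branched-chain list 9 and 1.

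HIS2, for histidinol phosphatase, measured 11.78 and 11.83 in starved against 10.07 and 10.06 in fed non-polysome RNA (1.74 ± 0.12). Polysome RNA gave -0.03 and total RNA 0.66, so that the difference was 1.77 against polysome (adjusted p = 7.42e-07) and 1.08 against total RNA (adjusted p = 0.000612). ILV6, the regulatory subunit of acetolactate synthase, rose by 0.93 ± 0.10 in non-polysome RNA and lay at -0.02 in polysome RNA, a difference of 0.95 (adjusted p = 7.49e-05). BAT2, a branched-chain aminotransferase, differed by 0.92 (adjusted p = 0.000428), ARO2, for chorismate synthase, by 0.98 (adjusted p = 0.000204), LYS9 by 0.79 (adjusted p = 0.000305) and ARO8, an aminotransferase, by 0.66 (adjusted p = 0.00085). In the MAS5 signals without the 2 columns ILV6 and ARO8 both differed by 1.66.

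SHM1, the mitochondrial serine hydroxymethyltransferase gene, lay at 0.20 in non-polysome RNA (adjusted p = 0.1) and -1.45 in polysome RNA, a difference of 1.65 (adjusted p = 7.42e-07). The arginine gene ARG8 lay below at -0.74 (adjusted p = 0.000754), but at -0.28 (adjusted p = 0.124) in the MAS5 signals without the 2 columns.

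Of the 24 genes under nitrogen catabolite repression 6 (25%) lay above the polysome change and 8 (33.3%) below, against 16.4% and 23.3% of all genes. With 1 array left out these counts were 4 to 5 and 5 to 8, and in uncentred MAS5 signals 1 and 4. The genes of nitrogen regulation and uptake named next include both directions. LEU3, the activator of branched-chain genes, measured 10.68 and 10.91 in starved against 10.37 and 10.36 in fed non-polysome RNA (0.43 ± 0.10) and rose by 1.43 in polysome RNA, a difference of -1.0 (adjusted p = 4.58e-05). GDH2, the NAD-dependent glutamate dehydrogenase, gave 0.35 ± 0.10 in non-polysome RNA (a call that ended at 0.18 without starved replicate 2, at 0.28 without fed replicate 2 and in a fit restricted to the groups compared, adjusted p = 0.163, 0.0634 and 0.0788) and rose by 1.71 in polysome RNA, a difference of -1.36 (adjusted p = 1.88e-06). DUR3, a urea transporter, rose by 1.05 ± 0.10 in non-polysome and 2.33 in polysome RNA, a difference of -1.28 (adjusted p = 2.77e-06). MEP3, an ammonium permease, measured 10.48 and 10.72 in starved against 11.53 and 11.45 in fed non-polysome RNA (-0.89 ± 0.12) and 0.16 in polysome RNA, a difference of -1.05 (adjusted p = 8.46e-05). ASP1, a cytosolic asparaginase, was opposite to these, with -0.45 in non-polysome (-0.30 and not called without starved replicate 1) and -1.87 in polysome RNA, a difference of 1.42 (adjusted p = 6.88e-06).

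GCN4 and CPA1 carry upstream reading frames that control their translation. GCN4 gave -0.23 outside polysomes, 0.45 in polysome RNA and 0.27 in total RNA, a difference of -0.68 ± 0.14 against polysome RNA (adjusted p = 0.00108). CPA1, a subunit of carbamoyl phosphate synthetase, measured 13.31 and 13.34 in starved against 12.37 and 12.49 in fed non-polysome RNA. It rose by 0.90 ± 0.10 there and by 1.54 in polysome RNA, a difference of -0.65 (adjusted p = 0.000985). Neither difference held in the centred MAS5 signals without the 2 columns, where they were 0.08 for GCN4 (adjusted p = 0.775) and 0.09 for CPA1 (adjusted p = 0.623). Among 10 messages listed for upstream reading frames 2 rose and 5 fell in non-polysome RNA (median -0.48), CLN3, a G1 cyclin, by -1.41 ± 0.15.

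Among the genes named by rule for this comparison, HAC1 and SRO9 had the largest differences above 0. HAC1, the transcription factor of the unfolded protein response, whose unspliced message is not translated, measured 13.32 and 13.62 in starved against 13.21 and 13.31 in fed non-polysome RNA (0.21 ± 0.71, adjusted p = 0.808). Its polysome arrays read 8.61 and 7.31 in starved and 9.99 and 11.73 in fed cells (-2.90), which gave a difference of 3.11 ± 1.01 (adjusted p = 0.0185). The call ended without fed polysome replicate 2 (2.24, adjusted p = 0.114) or starved polysome replicate 2 (2.46, adjusted p = 0.0867), while it was 3.98 without fed polysome replicate 1 and 3.76 without starved polysome replicate 1. SRO9, an RNA-binding protein gene, differed by 2.79 (2.13 without starved non-polysome replicate 2 and 3.44 without starved replicate 1), SCS3 by 2.52 (1.72 in the MAS5 signals without the 2 columns) and REX4 by 2.18 (adjusted p = 6.1e-06). WHI5, a repressor of G1 cyclin genes, differed by 2.31, a call that ended without fed polysome replicate 2 (1.72), starved polysome replicate 2 (1.87), fed non-polysome replicate 1 (2.23) or starved non-polysome replicate 1 (2.25), with adjusted p of 0.124, 0.0944, 0.062 and 0.0591, and in the MAS5 signals without the 2 columns (2.36, adjusted p = 0.106). CPS1, a vacuolar carboxypeptidase, rose by 2.01 ± 0.32 in non-polysome RNA and lay at -0.13 in polysome RNA, a difference of 2.15 (adjusted p = 0.000931).

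On the lower side HXT14 differed by -2.27, PAU21 by -1.86, NFT1 by -1.86, YOL014W by -1.70, YKR104W by -1.63 and VTH1 by -1.58. HXT14, of the hexose transporter family, measured 7.91 and 7.52 in starved against 8.44 and 7.94 in fed non-polysome RNA (-0.48 ± 0.24, adjusted p = 0.0843) and rose by 1.79 in polysome RNA. PAU21 and VTH1 belong to families of near-identical genes, and NFT1 and YKR104W are neighbours in the annotation, so the signals within each may not be separate. PAU21 lay at -2.47 in the MAS5 signals without the 2 columns.

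Of the 25 genes of nuclear transport receptors and Ran 6 (24%) lay above the polysome change and 7 (28%) below (median -0.19), and of the 13 genes of the Gcn2 pathway, eIF2 and eIF2B 4 and 4 (30.8% each), against 16.4% and 23.3% of all genes. In the MAS5 signals without the 2 columns the transport list had 8 above and 3 below (median 0.13). Of the 31 translation factor genes 10 lay above and 2 below. The genes named next from these lists all lay above, and the members that lay below are not shown. These examples therefore do not stand for the lists. RNA1, the GTPase activator of Ran, measured 11.61 and 11.62 in starved against 11.02 and 11.06 in fed non-polysome RNA (0.58 ± 0.08), and was called down in polysome RNA (-0.70) and total RNA (-0.33). The difference was 1.28 against polysome (adjusted p = 7.42e-07) and 0.91 against total RNA (adjusted p = 0.000257). SRM1, the exchange factor of Ran, fell in both pools and differed by 1.02 (adjusted p = 7.69e-05). YIH1, an inhibitor of Gcn2 activation, lay at -0.05 in non-polysome and -1.66 in polysome RNA, a difference of 1.61 (adjusted p = 2.24e-05), CAM1, a subunit of elongation factor 1B, differed by 1.36 (adjusted p = 7.1e-05), and CDC33, the cap-binding protein eIF4E, by 0.69 (adjusted p = 0.000612).

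Of the 33 chaperone genes 9 (27.3%) lay above and 3 (9.09%) below the polysome change, and of the 35 decay genes 2 (5.71%) above and 11 (31.4%) below, against 16.4% and 23.3% of all genes. Their median differences were 0.24 and -0.06, against -0.08 over all genes. Uncentred MAS5 signals gave 0 chaperone genes above and 1 below, and the MAS5 signals without the 2 columns gave 5 decay genes above and 6 below. CPR6, a cyclophilin that binds Hsp90, averaged 11.61 ± 0.08 in starved and 12.04 ± 0.06 in fed non-polysome RNA (SD, n = 2 each), a change of -0.43 ± 0.10, and gave -1.67 in polysome and -1.93 in total RNA. The difference was 1.24 against polysome (adjusted p = 2.25e-06) and 1.50 against total RNA (adjusted p = 9.5e-07). The difference from total RNA turned to -0.21 in the centred MAS5 signals with all columns kept. That setting includes the 2 total RNA columns that match the other condition. HCH1, another Hsp90 co-chaperone, differed by 1.09 (adjusted p = 3.1e-05). Of the chaperone genes 9 (27.3%) lay above and 2 (6.06%) below the total RNA change (median 0.34), against 9.14% and 9.55% of all genes. SKI2, a helicase that works with the exosome, measured 10.58 on both starved arrays against 11.40 and 11.27 on fed arrays (-0.76 ± 0.09), with a difference of -0.95 (adjusted p = 2.6e-05). DCP2, the decapping enzyme, lay at 0.00 in non-polysome and rose by 0.96 in polysome RNA, a difference of -0.95 (adjusted p = 0.0014), and CAF40 differed by -0.86 (adjusted p = 0.000135).

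Of the 28 G1/S genes 2 (7.14%) lay above the polysome change and 8 (28.6%) below, against 16.4% and 23.3% of all genes, and 3 and 4 in the MAS5 signals without the 2 columns. RNR1 differed by -1.07 (adjusted p = 0.00112) and GIN4, a bud-neck kinase, by -1.22 (adjusted p = 0.000438). STE6 differed by -1.46 (adjusted p = 0.000185). Of the 8 genes listed as MATa-specific 0 lay above and 4 below (median -0.62, and -0.75 to -0.58 with 1 array left out). GPA1, the G protein alpha subunit of pheromone signalling, measured 10.65 and 10.71 in starved against 11.24 and 11.27 in fed non-polysome RNA (-0.58 ± 0.09) and was called up in polysome RNA (0.41), a difference of -1.0 (adjusted p = 1.18e-05; -0.41 and adjusted p = 0.0719 in the MAS5 signals without the 2 columns).

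**Figure D4:**
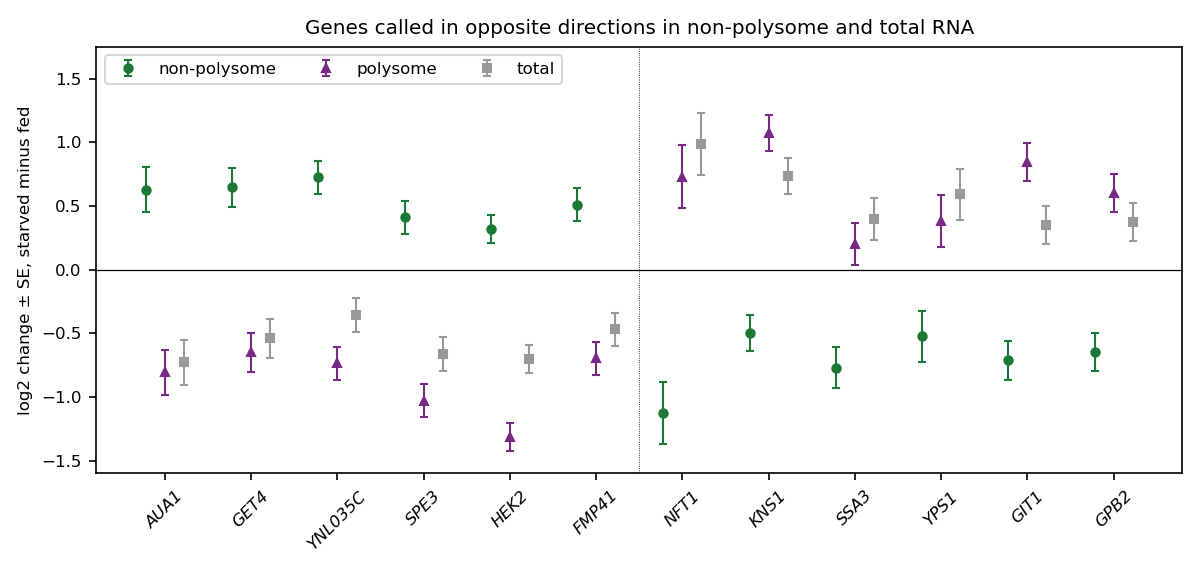
Log2 change, starved minus fed, ± the standard error of the fit (vertical axis), of the 12 genes with the largest differences among those called in opposite directions in non-polysome and total RNA. The 6 genes on the left rose in non-polysome RNA (circles) and fell in total RNA (squares), and the 6 on the right did the reverse, with polysome RNA as triangles.

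A small number of genes was called in opposite directions. Against total RNA, 41 genes rose outside polysomes and fell in total RNA (0.768%) and 33 did the reverse (0.618%), each with a called difference. GET4, which acts in the insertion of tail-anchored proteins, measured 10.66 and 10.55 in starved against 9.99 and 9.92 in fed non-polysome RNA (0.65 ± 0.15), -0.54 in total RNA and -0.65 in polysome RNA, with a difference of 1.19 from total RNA (adjusted p = 0.00136). SPE3, for spermidine synthase, measured 12.47 on both starved arrays against 12.04 and 12.08 on fed arrays (0.41 ± 0.13), -0.66 in total and -1.03 in polysome RNA, a difference of 1.08 (adjusted p = 0.000951). The rise of SPE3 was 0.03 and not called in the MAS5 signals without the 2 columns (adjusted p = 0.881). HEK2, an RNA-binding protein gene, rose by 0.32 ± 0.11, a call that ended without fed replicate 2 (0.26, adjusted p = 0.101) or starved replicate 1 (0.23, adjusted p = 0.142), and differed by 1.02. YNL035C and FMP41 differed by 1.08 and 0.98. AUA1 differed by 1.35 and overlaps another gene, and the call of its rise of 0.63 ended without fed replicate 1 (0.37, adjusted p = 0.118) or starved replicate 1 (0.51, adjusted p = 0.0505). In the MAS5 signals without the 2 columns the difference of AUA1 was 1.05 (adjusted p = 0.111).

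Of the 33 with the reverse pattern, NFT1, an ABC transporter gene, measured 5.81 and 6.26 in starved against 7.29 and 7.03 in fed non-polysome RNA (-1.13 ± 0.24). These levels are low, as the lowest mean of any gene over the 4 non-polysome arrays was 5.675. In total RNA NFT1 changed by 0.99, a difference of -2.11 (adjusted p = 0.000707). KNS1, a protein kinase gene, measured 9.21 and 9.58 against 9.82 and 9.96 (-0.50 ± 0.14, and -0.31 with adjusted p = 0.109 without starved replicate 1), 1.08 in polysome and 0.74 in total RNA, a difference of -1.23 (adjusted p = 0.000698). SSA3, an Hsp70 gene induced by stress, measured 9.08 and 9.31 against 9.94 and 9.99 (-0.77 ± 0.16), a difference of -1.17. GIT1 and GPB2 differed by -1.06 and -1.02, and YPS1 by -1.12, a call that ended without fed replicate 2 (-0.93, adjusted p = 0.0565), without starved replicate 1 (adjusted p = 0.0523), and at -0.92 when MAS5 signals without the 2 columns were used (adjusted p = 0.101). The non-polysome fall of YPS1 alone, at -0.52, was not called without the same 2 arrays (-0.33 and -0.40), and the difference of GPB2 was -0.72 (adjusted p = 0.106) in those MAS5 signals. PDR12, a weak acid exporter, is not among them, since its non-polysome change of -0.38 ± 0.22 was not called (adjusted p = 0.14), but it differed from total RNA by -1.46 (adjusted p = 0.00368). Against polysome RNA, 88 genes rose outside polysomes and fell in them (1.65%) and 118 did the reverse (2.21%).

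**Figure D5:**
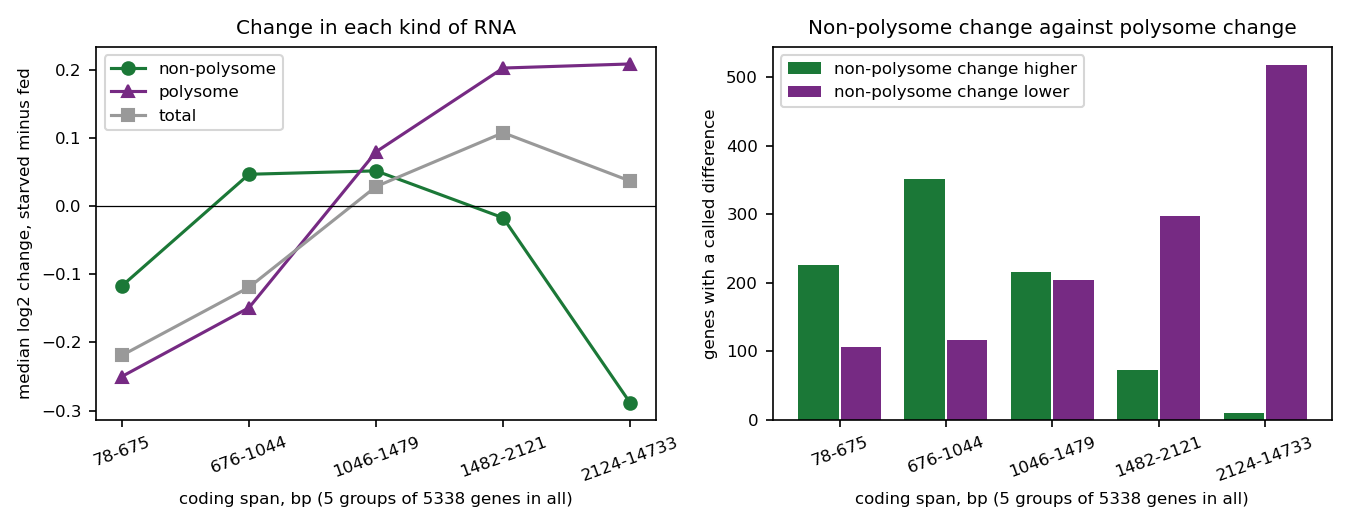
Left, median log2 change, starved minus fed (vertical axis), in wild-type non-polysome RNA (circles), polysome RNA (triangles) and total RNA (squares), over 5 groups of genes by coding span (horizontal axis, bp). Right, number of genes in each group whose non-polysome change was called above (green) or below (purple) the polysome change, 226 above in the shortest group, and 10 above and 518 below in the longest.

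These genes differed in coding span from the rest, and the difference between pools varied with span across all genes. The coding span had a median of 1251 bp over all genes, of 1059 bp for the 41 that rose outside polysomes and fell in total RNA, and of 1950 bp for the 33 with the reverse. It was 903 bp for the 876 genes whose non-polysome change lay above the polysome change and 1899 bp for the 1242 below. In 5 groups of nearly equal size by coding span, from 78 to 675, 676 to 1044, 1046 to 1479, 1482 to 2121 and 2124 to 14733 bp, the median non-polysome change was -0.12, 0.05, 0.05, -0.02 and -0.29. In polysome RNA it was -0.25, -0.15, 0.08, 0.20 and 0.21. The pools thus moved apart most in the longest genes, of which 207 rose and 510 fell outside polysomes and 480 rose and 223 fell in them.

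The difference itself had medians of 0.15, 0.23, 0.02, -0.21 and -0.47 over the same groups. Genes above the polysome change numbered 226, 351, 216, 73 and 10 from the shortest to the longest group, and genes below it numbered 106, 116, 204, 298 and 518. Against total RNA they numbered 99 and 37 in the shortest and 7 and 219 in the longest group. Among genes outside all lists used here, the medians were 0.11, 0.18, -0.05, -0.23 and -0.49. Within each of 5 groups by mean level, the longest genes had medians from -0.43 to -0.51. The shortest genes were less uniform, with medians of -0.07, 0.06, 0.26, 0.27 and 0.20 from the lowest to the highest level and, at the lowest level, 21 genes above and 25 below. In uncentred MAS5 signals the shortest group held 81 genes above and 108 below (median 0.03). The median of the longest group was -0.41 to -0.54 with 1 array left out, -0.40 in centred and -0.71 in uncentred MAS5 signals. This dependence on span was described and not tested, since genes are not replicates, and its cause was not tested.

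Several lists above are short or long as a class. The median coding span, which includes introns, was 805 bp for the large-subunit and 768 bp for the small-subunit ribosomal protein genes and 717 bp for the mitochondrial ones, and 2757 bp for the transport receptors. In RMA signals the direction did not follow span in every list. The processome genes, with a median of 1662 bp, had a median difference of 0.25 (-0.01 to 0.54 with 1 array left out). The 10 histone genes, with 402 bp, had one below 0, with 0 genes above and 4 below. That direction was not kept in MAS5 signals. Without the 2 columns the histone list had 7 above and 1 below (median 0.50), and without centring 0 and 1 (median 0.185). Whether span plays a part in the difference of any list was not tested.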

How the data were processed

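RNA of wild-type, msn5 and mtr10 yeast had been hybridised to Affymetrix arrays. The log2 values of the series table were deposited by the authors and come from RMA in the affy package, per the submitters' processing notes, with 5684 probe sets. A second table deposited by the authors holds MAS5 signal intensities of 10928 probe sets, per the file headers, beside 72 columns of detection calls and their values, which were not used. The sources used here give no software versions. The number of arrays limits the precision. Symbols were matched through RefSeq assembly R64, which left 5338 genes.

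One limma model (version 3.58.1 in R 4.3.3) with a mean for each of 18 groups was fitted to all 36 arrays, with Benjamini-Hochberg adjustment over the 5338 genes and a threshold of 0.05. Starved minus fed was tested in non-polysome RNA, and its differences from the polysome and the total RNA change in the same fit. On simulated data, 94% of 50 genes changed by 1 log2 unit were recovered in the first comparison, 76% in the second and 78% in the third, with 9, 5 and 4 false calls. There only 50 of 5338 genes changed at each size, in non-polysome RNA alone, and the noise was independent between arrays. In the data 67% of genes were called in the first comparison, so these figures describe the simulated setting only. RMA equalises the arrays, so a change of a whole pool's amount cannot be seen.

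Genes were named by rule: HIS3, MSN5, MTR10, GCN4 and CPA1, the 10 largest called rises and falls without overlap, up to 4 called members of smallest p in each list with its largest rise and fall, the 6 largest differences each way, and the 6 largest of each kind of opposite call. Not every gene that these rules picked is printed, and other named genes were chosen after their values were seen. The members and gene lists were chosen with earlier results of these data known. LEU2, URA3, LYS2, ARG5,6 and TRP1 were not analysed here, and promoter motifs were not searched. The planned filter on Present calls was not run.

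MAS5 columns name a group and not a sample. The first starved and the first fed total RNA column of wild-type correlated with the RMA arrays of the other condition (mean r = 0.932 and 0.911) and not with their own (-0.35 and -0.413), so MAS5 signals without these 2 columns were added as an alternative after seeing the data. Other alternatives were other sample sets, limma-trend, filters, the mean of probe sets, the replicate number as a block and leaving out each array. The numbers are not stated to mark a shared culture and, with 2 arrays a group, were not taken to pair the samples.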

Additional observations from a re-analysis of the deposited data

Results flagged for a closer look

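The starvation change differed between non-polysome and polysome RNA at 2118 genes and between non-polysome and total RNA at 998 genes, each by a test of the difference in the limma fit. Among genes that rose outside polysomes and fell in total RNA, the difference on the log2 scale was 1.35 for AUA1, 1.19 for GET4, 1.08 for YNL035C, 1.08 for SPE3, 1.02 for HEK2 and 0.98 for FMP41. Among genes with the reverse pattern it was -2.11 for NFT1, -1.23 for KNS1, -1.17 for SSA3, -1.12 for YPS1, -1.06 for GIT1 and -1.02 for GPB2. These stood out because the 2 kinds of RNA were called in opposite directions, and what lies behind them was not tested. Several rest on small non-polysome changes. Those were 0.37 for AUA1 without fed replicate 1 and -0.33 for YPS1 without fed replicate 2. Without starved replicate 1 they were 0.23 for HEK2 and -0.31 for KNS1. The rise of SPE3 was 0.03 in the MAS5 signals without the 2 total RNA columns, and NFT1 lay low on the scale in non-polysome RNA.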

How the results depend on the processing

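Each count and each of the 108, 56 and 16 called gene values named in the 3 comparisons was recomputed under every alternative, except that 8 of 195 gene values fell outside the filter to a mean level of at least 8, and 84, 34 and 2 of those genes kept their direction and their call wherever they were computed. With 1 array left out, the non-polysome counts ran from 1399 to 1552 rises and from 1627 to 1744 falls, with 480 to 570 and 380 to 622 at least 2-fold. The differences from polysome RNA ran from 670 to 815 genes above and 906 to 1148 below. Those from total RNA ran from 276 to 487 above and 225 to 581 below: 310, 287 and 276 genes lay above without fed non-polysome replicate 2, starved non-polysome replicate 1 and fed total replicate 1, and 301, 324, 225, 271, 292 and 336 below without fed non-polysome replicates 1 and 2, starved non-polysome replicate 1, fed total replicates 1 and 2 and starved total replicate 1. MAS5 signals gave 1102 rises (not centred) and 1213 falls (centred) in non-polysome RNA, and 329 genes above (not centred) and 464 below (centred) the polysome change. Of the called differences from polysome RNA, 41.4% lay above in RMA, 56.3% in centred and 22.5% in uncentred MAS5 signals. Without the 2 mismatched total RNA columns, an alternative chosen after seeing the data, that share was 54.7%, and 205 genes lay above and 103 below the total RNA change, which is 66.6% above, against 48.9% in RMA. Centred MAS5 signals, with all columns or without those 2, turned the difference from polysome RNA to 0.09 for CPA1 and 0.08 for GCN4. With all columns the difference from total RNA was -0.21 (centred) and -0.22 (not centred) for CPR6 and -0.01 (not centred) for SPE3. The cause of these changes was not tested. The planned filter to genes with a Present call was not run, since the detection columns were not used. Of 180 called values, 51 lost their call in centred and 52 in uncentred MAS5 signals with all columns, against 13 without the 2 columns.

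The replicate block gave 1720 rises and 2010 falls in non-polysome RNA, 1003 genes above and 1379 below the polysome change, and 638 above and 666 below the total RNA change, and GCN4 in non-polysome RNA was the 1 value whose call it changed. Deviations of same-numbered arrays, 2 pairs each, correlated at 0.201 between starved and fed non-polysome RNA, at 0.373 in starved and 0.463 in fed cells between non-polysome and polysome RNA, and at 0.585 in starved and 0.453 in fed cells between non-polysome and total RNA. Array number limits precision. In the simulated setting described above, changes of 0.5 log2 units were recovered at 66% of 50 genes in non-polysome RNA. The share was 40% in its difference from polysome RNA and 42% in that from total RNA.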

Other observations

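In the non-polysome pool 31.1% of all genes rose and 36% fell, and gene groups outside amino acid metabolism and translation are set against those shares here. Of 10 genes of pyrimidine synthesis 2 rose and 7 fell (median -0.54), and of 14 genes of purine synthesis 6 rose and 4 fell (median 0.27). Of 26 genes of iron uptake 8 (30.8%) rose and 3 fell in non-polysome RNA (median 0.13), a share of rises near that of all genes, against 13 and 0 in polysome RNA (median 0.41). Rises of iron genes numbered 3 to 9 with 1 array left out and 1 in uncentred MAS5 signals. Of the 26, 6 (23.1%) lay below the polysome change, against 23.3% of all genes, and 0 above, with 2 to 6 below when 1 array was left out. Of 24 ergosterol genes 7 rose and 9 fell in non-polysome RNA (median 0.11), shares of 29.2% and 37.5% that lie near those of all genes, against 4 and 10 in polysome RNA (median -0.16). Above the polysome change lay 9 ergosterol genes (37.5%) and below it 4 (16.7%), against 16.4% and 23.3% of all genes. The median over all genes was -0.07 in non-polysome and 0.02 in polysome RNA.

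Genes of the secretory pathway, listed for signal recognition, translocation and folding in the endoplasmic reticulum, gave 4 rises and 18 falls among 36 in non-polysome RNA (median -0.21). Of 18 genes of the phosphate regulon 7 rose and 4 fell (median 0.30). Hexose transporter genes gave 1 rise and 1 fall among 13 outside polysomes (median -0.03), against 5 and 0 in polysome RNA (median 0.28).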
